A study of Mus musculus with 2 samples.

Results

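The proteins through which visceral endoderm carries and takes up nutrients were examined in RNA without poly(A) tails from mouse ESCs and ESC-derived neuronal progenitor cells (NPCs). The set held 10 of the 37310 genes of the GENCODE M1 annotation (mm9): the secreted carriers Afp, Ttr, Apoa1, Apob, Apoe and Apom, the endocytic receptors Lrp2 and Cubn, the Cubn partner Amn, and the adaptor Dab2. The genes were chosen by name with their read counts in these same libraries known, so their NPC to ESC ratios are given as a description, with no test and nothing resting on them. Same-strand reads overlapping the exons of each gene were counted.

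The ESC library came from R1 male ESCs at passage 18, grown with LIF on mitomycin C-treated mouse embryonic fibroblast (MEF) feeders. The NPC library came from the same R1 line after 4 days as embryoid bodies in medium lacking LIF, followed by replating on poly-L-ornithine and fibronectin with insulin, transferrin and selenium, and was gathered on day 7. Each cell type had 1 library, both from R1 cells, so no difference below has a replicate check and each ratio compares those libraries rather than the cell types. The non-polyadenylated (NPA) fraction, the RNA that repeated oligo(dT) capture left behind, was sequenced after removal of rRNA, so a level here is that of transcripts or fragments without a captured tail, and a change in that fraction cannot be told apart from a change in the whole mRNA. Fewer cells of a type and less RNA per cell cannot be told apart either.

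Visceral endoderm is the epithelium that surrounds the early mouse embryo and feeds it before a placenta forms. Its apical surface takes up maternal proteins and lipids through megalin (Lrp2) and cubilin (Cubn), which reaches the membrane with amnionless (Amn), and Dab2 links these receptors to the clathrin coat. The same cells secrete plasma carriers such as alpha-fetoprotein, transthyretin and apolipoproteins, which the fetal liver makes later. Embryoid bodies form an outer layer of this kind of endoderm.

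The ESC file held 4271306 mapped reads and the NPC file 4399729, so that 1 read was worth 0.234 and 0.227 RPM (reads per 1000000 mapped reads). A count of 0 was treated as 3 reads, 0.702 RPM in ESCs and 0.682 RPM in NPCs. Over the 14859 genes that had 10 or more reads, the median log2 NPC:ESC ratio was 0.34 rather than 0. Of these genes, 24.6% were more than 2-fold higher in NPCs and 12.8% in ESCs. The labelled neural identity was thinly marked in the NPC library: of 11 annotated neural progenitor markers 7 had at least 10 reads, 2 of these (Pax6 with 1 read in ESCs and 12 in NPCs, Zic1 with 1 and 22) were more than 2-fold higher in NPCs, and the list summed to 447 reads in ESCs and 457 in NPCs. The other 5 of the 7 were Nes with 66 and 121 reads, Ncam1 with 100 and 104, Tubb3 with 109 and 87, Msi1 with 99 and 60 and Dll1 with 70 and 40. All 9 parietal endoderm markers were more than 2-fold higher in NPCs, and their summed level went from 795 to 15176 RPM. Of the 11 annotated pluripotency markers 7 were more than 2-fold higher in ESCs, and they summed to 2035 RPM in ESCs and 618 RPM in NPCs. Fibroblast markers summed to 67.7 RPM in ESCs and 66.4 RPM in NPCs, with 1 of the 7 that had at least 10 reads more than 2-fold higher in NPCs (Col1a2, 51 and 165) and 2 in ESCs (Thy1, 79 and 12, and Pdgfrb, 93 and 21). Of 6 macrophage markers, Ptprc, Adgre1 and Tyrobp had no read, Csf1r had 0 and 20 reads, Cd68 had 23 in each library and Itgam 6 and 1. The part of these other cell types in the results below was not tested.

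The sequences below show what the counts consist of. Each is the 48 bases of mm9 at the most-read NPC position that lay wholly inside a coding exon, written 5′ to 3′ on the strand of the gene. No capitals are used because no base is singled out. The receptor Lrp2 (exon 42 of 79, chr2:69319215-69319262, minus strand) had 6 reads at that position in ESCs and 24 in NPCs, Cubn (exon 30 of 67, chr2:13305552-13305599, minus strand) had 2 and 27, and Dab2 (exon 3 of 15, chr15:6368263-6368310, plus strand) had 4 and 26. Among the carriers, Afp (exon 12 of 15, chr5:90935671-90935718, plus strand) had 0 and 7 reads, Apob (exon 26 of 29, chr12:8016550-8016597, plus strand) 0 and 7, and Apoe (exon 4 of 4, chr7:20281778-20281825, minus strand) 64 and 42.
Lrp2: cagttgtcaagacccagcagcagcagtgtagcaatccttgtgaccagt
Cubn: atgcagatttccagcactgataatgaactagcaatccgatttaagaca
Dab2: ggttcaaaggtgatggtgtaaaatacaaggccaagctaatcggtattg
Afp: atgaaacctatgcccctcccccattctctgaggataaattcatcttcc
Apob: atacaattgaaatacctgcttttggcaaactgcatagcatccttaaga
Apoe: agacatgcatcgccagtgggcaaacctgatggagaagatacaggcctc

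Afp, Ttr and Apob, 3 carriers that were all but absent from the ESC library, had 141, 37 and 134 reads in the NPC library, and both endocytic receptors and Dab2 were 6.07-fold to 23.6-fold higher there. Apoe stood at 163 RPM in ESCs and 146 RPM in NPCs. Of the 10 genes, 8 had at least 10 reads in both libraries together. Of these, 6 were more than 2-fold higher in NPCs and 0 more than 2-fold higher in ESCs, where 24.6% and 12.8% of all 14859 genes were. Under median-of-ratios scaling those shares of all genes became 15.7% and 18.7%, and with each start counted a single time 12% and 11.4%. Since these ratios were known when the genes were chosen, nothing is read from the count. Together the 10 genes took 1132 reads in ESCs and 4149 in NPCs, and without Apoe 434 and 3505, a ratio of 7.84 (95% interval 7.09 to 8.68). All intervals are exact and cover counting error only.

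**Figure D1:**
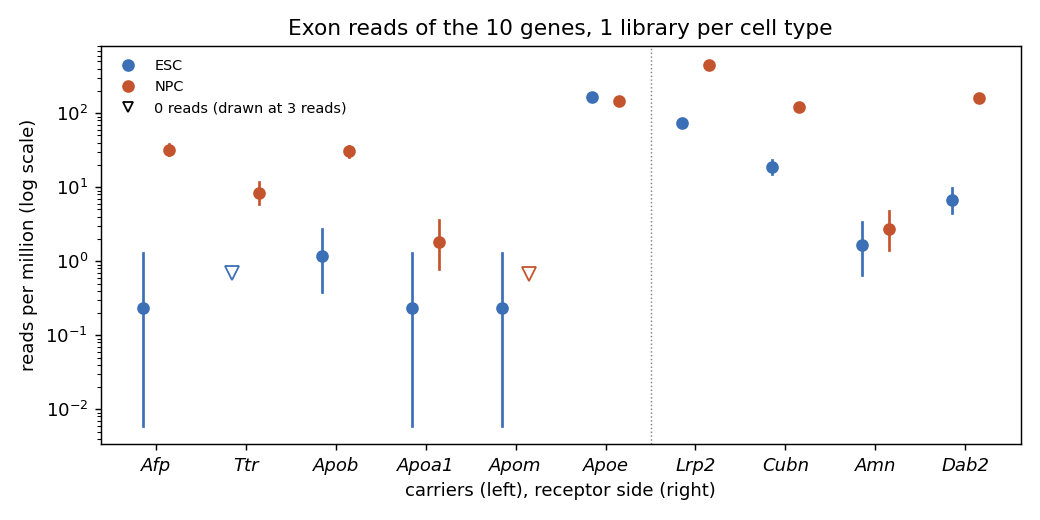
Exon RPM (vertical axis, log scale) of each gene (horizontal axis) in the ESC library (blue) and the NPC library (orange); points are single libraries, lines are exact 95% Poisson intervals and open triangles are counts of 0 drawn at 3 reads. The NPC point lies above the ESC point for Afp, Ttr, Apob, Apoa1, Lrp2, Cubn, Amn and Dab2, with overlapping intervals for Amn and Apoa1, and just below it for Apoe, while Apom has 1 read in ESCs and 0 in NPCs.

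Afp encodes alpha-fetoprotein, the albumin-like carrier of fetal plasma, and lies at chr5:90919740-90937933 on the plus strand. It had 1 read (0.234 RPM) in ESCs and 141 reads (32.0 RPM) in NPCs, a ratio of 137 (interval 24.2 to 5444). The 141 reads began at 67 positions and reached 12 of its 15 exons, and 136 of them lay in coding sequence. At 1 placement, which began 3 bases before exon 9, lay 23 of the 141 reads. In its 16108 intron bases lay 3 reads, 2.08% of its reads (interval 0.432 to 5.97%).

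Apob encodes the structural protein of low-density lipoprotein (chr12:7984454-8023641, plus strand). The ESC library held 5 Apob reads (1.17 RPM) and the NPC library 134 (30.5 RPM), 26-fold higher (10.9 to 81.4). Its NPC reads began at 98 positions, touched 16 of 29 exons and included none in 25254 intron bases, which allows up to 2.72% of its reads. Apob was also the sole gene of the set with reads on the opposite strand, 2 in ESCs and 1 in NPCs.

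Ttr, the transthyretin that carries thyroid hormone and the retinol-binding protein, had 0 reads in ESCs and 37 in NPCs (8.41 RPM), so that it was at least 12-fold higher in NPCs with the ESC count taken as 3 reads (lower limit 3.79). With each start counted a single time, the log2 of that bound was 2.73. The NPC reads began at 24 positions and touched all 4 exons, with 25 in coding sequence and 1 in an intron. Apoa1, the main protein of high-density lipoprotein (chr9:46036663-46038549, plus strand), had 1 and 8 reads, a ratio of 7.77 (1.04 to 345). With 8 NPC reads at 5 positions it fell short of 10 reads in all. Apom, a lipocalin carried on high-density lipoprotein (chr17:35265942-35268995, minus strand), had 1 read in ESCs and 0 in NPCs, both at or under 3 reads, and no ratio is given.

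Apoe encodes apolipoprotein E, a ligand of several lipoprotein receptors, including megalin (chr7:20281458-20284515, minus strand). It had 698 reads in ESCs and 644 in NPCs, the sole gene of the set with more reads in ESCs among those with at least 10. The ratio was 0.896 (0.803 to 0.998), or -0.16 on the log2 scale and -0.49 relative to the median of all genes. Its reads were concentrated on few positions: 166 starts in ESCs and 153 in NPCs, 4.20 and 4.21 reads per start, where Lrp2 had 1.27 and 1.92. Its log2 ratio was -0.39 with each start counted a single time and -0.50 under median-of-ratios scaling.

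Lrp2 encodes megalin, the giant scavenger receptor of the lipoprotein receptor family (chr2:69262397-69424122, minus strand). It had 310 reads in ESCs (72.6 RPM) and 1939 in NPCs (440.7 RPM), a ratio of 6.07 (5.38 to 6.87), and had the most NPC reads of the 10 genes. Cubn, the peripheral receptor for intrinsic factor-vitamin B12, albumin and apolipoprotein A-I (chr2:13197965-13413551, minus strand), had 80 and 529 reads, 18.7 and 120 RPM, a ratio of 6.42 (5.07 to 8.23). The intervals of both ratios overlapped. Reads reached 71 of 80 Lrp2 exons in ESCs and 76 in NPCs, and 36 and 63 of 68 Cubn exons.

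Amn encodes the protein that anchors cubilin in the membrane (chr12:112509322-112514637, plus strand). The ESC library held 7 Amn reads (1.64 RPM) and the NPC library 12 (2.73 RPM), and the ratio of 1.66 (0.604 to 4.99) spanned 1. The Cubn ratio of 6.42 lay above that interval. Dab2, the clathrin adaptor that binds the tail of megalin (chr15:6249788-6390712, plus strand), had 29 and 705 reads, 6.79 and 160 RPM, a ratio of 23.6 (16.3 to 35.5). Its interval lay above those of Lrp2 and Cubn. The 4 receptor-side genes together took 426 and 3185 reads, a ratio of 7.26 (6.56 to 8.05), and the 6 carriers 706 and 964, a ratio of 1.33 (1.20 to 1.46) that Apoe dominated.

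Levels can be compared between genes only per length, as RPM per kb of merged exons (RPKM). In NPCs Apoe was highest at 73.9 RPKM, followed by Lrp2 at 26.4, Dab2 at 21.8, Afp at 15.4, Cubn at 10.2, Ttr at 6.90, Apob at 2.19, Amn at 1.62 and Apoa1 at 1.47. The place of Dab2 rests on 7342 exon bases merged over 15 transcripts. Over coding bases alone, Dab2 had 176 reads per kb in NPCs and Lrp2 129, the reverse order. The intervals of Cubn (9.33 to 11.1) and Ttr (4.86 to 9.51) overlapped, as did those of Apob, Amn and Apoa1, so the order within each of these groups is not resolved by the counts. In ESCs Apoe stood at 82.5 RPKM, Lrp2 at 4.35, Cubn at 1.59, Amn at 0.973 and Dab2 at 0.925, the last 3 with overlapping intervals, and each other carrier at or below 0.228.

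Receptors and their partners were next set against each other within each library. Lrp2 stood 2.74-fold above Cubn per length in ESCs (2.14 to 3.55) and 2.59-fold in NPCs (2.35 to 2.86). Lrpap1, the chaperone that keeps megalin from binding ligands in the endoplasmic reticulum, stood 2.69-fold above Lrp2 in ESCs (2.24 to 3.22) and 2.65-fold in NPCs (2.47 to 2.84). Cubn relative to Amn was 1.63-fold in ESCs (0.756 to 4.18) and 6.29-fold in NPCs (3.57 to 12.2), with overlapping intervals. Dab2 was 0.213 of the Lrp2 level in ESCs (0.140 to 0.312) and 0.827 in NPCs (0.758 to 0.902), intervals that did not overlap. Over coding bases alone, Dab2 had 10.4 reads per kb in ESCs and 176 in NPCs, and Lrp2 21.0 and 129. Which of them stood higher in NPCs thus depends on the bases counted. Reads are contiguous placements of at most 48 bases, so exons shorter than that and exon junctions lose reads. Only 73.4% of Cubn exon bases and 66.6% of Amn exon bases can begin a 48-base read lying wholly inside an exon, against 86.2% for Dab2. Counted per such position, Lrp2 stood 2.73-fold above Cubn in ESCs and 2.49-fold in NPCs. Cubn relative to Amn became 2.40-fold in ESCs (0.897 to 9.03) and 9.14-fold in NPCs (4.40 to 22.9). Lrpap1 stood 2.25-fold above Lrp2 in ESCs (1.87 to 2.71) and 2.39-fold in NPCs (2.22 to 2.56). The NPC value lay below its interval over all exon bases. Dab2 was 0.197 of Lrp2 in ESCs and 0.771 in NPCs.

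Intron reads, from the same libraries as the ratios above and likewise a description, were found at the 3 long receptor-side genes in both. Lrp2 had 42 intron reads in ESCs and 356 in NPCs (8.23-fold, 5.97 to 11.6), Cubn 15 and 123 (7.96-fold, 4.64 to 14.7), and Dab2 6 and 201 (32.5-fold, 14.7 to 89.7). Each of these intervals overlapped that of the exon ratio of the same gene. Intron reads summed over 10382 protein-coding genes in ESCs and 10609 in NPCs, sets that differ between the libraries, were 1.12-fold higher in NPCs. The exon reads of those sets were 1.30-fold higher. As a share of the reads of the gene, introns took 11.9 and 15.5% for Lrp2, 15.8 and 18.9% for Cubn and 17.1 and 22.2% for Dab2 in ESCs and NPCs, where the median protein-coding gene had 15.8 and 14.4%. In NPCs Afp, Ttr, Apob and Apoe lay below the median. Afp, Ttr and Apob had 3, 1 and 0 intron reads there. Apoe had 0.570% of its reads in introns in ESCs and 0.770% in NPCs, over 1078 intron bases. Lrp2, Cubn and Dab2 have 145025, 203772 and 133581 intron bases, and such shares depend on intron length. Per kb, NPC exon reads were 70.1-fold denser than intron reads for Apoe, on 5 intron reads. The NPC values for Lrp2, Dab2 and Cubn were 47.3, 63.8 and 74.2, so per length Apoe was not set apart from them. Those of Afp and Ttr were 363 and 238. Reads overlapping repeats were removed by the authors, and the repeat content of these introns was not measured.

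Reads were not spread evenly along the merged exons. Lrp2 had 39.0% of its ESC reads (33.6 to 44.7%) and 51.0% of its NPC reads (48.8 to 53.3%) on the 5′ side of the middle of its exon bases, and those intervals did not overlap. The shares were 39.6% (33.4 to 46.02%) and 50.5% (47.4 to 53.6%) with each start counted a single time. They divide 16701 bases merged over 4 transcripts and were not computed along Lrp2-001 alone. Over all protein-coding genes with at least 10 reads the share was 48.7% in ESCs and 47.5% in NPCs. Cubn, the other giant receptor, had 51.3% in ESCs (39.8 to 62.6%) and 55.8% in NPCs (51.4 to 60.1%), which overlapped.

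Afp had 16.3% of its 141 NPC reads on the 5′ side (10.6 to 23.5%) and 39, 47 and 23 of them in bins 6, 7 and 8 when the exon bases were cut into 10 equal bins. Its share was 26.9% (16.8 to 39.1%) with each start counted a single time. Apob reads were spread along the transcript, with 43.3% on the 5′ side (34.8 to 52.1%). Apoe reads lay mainly in bins 4 and 9 in both libraries, with 304 and 215 of 698 reads in ESCs and 233 and 204 of 644 in NPCs. Its 5′ share was 49.3% in ESCs and 44.4% in NPCs, and 38.0% and 44.4% with each start counted a single time. The Apoe bins divide 1980 bases merged over 10 transcripts, of which Apoe-001 held 697 of the 698 ESC reads. The Apoe peaks and shares thus depend on the merged annotation and are not positions along that transcript. The same holds for Dab2, whose bins divide 7342 bases merged over 15 transcripts. Dab2-001 held 692 of its 705 NPC reads, and bins 1, 2 and 3 of the merged exons held 0, 0 and 2.

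**Figure D2:**
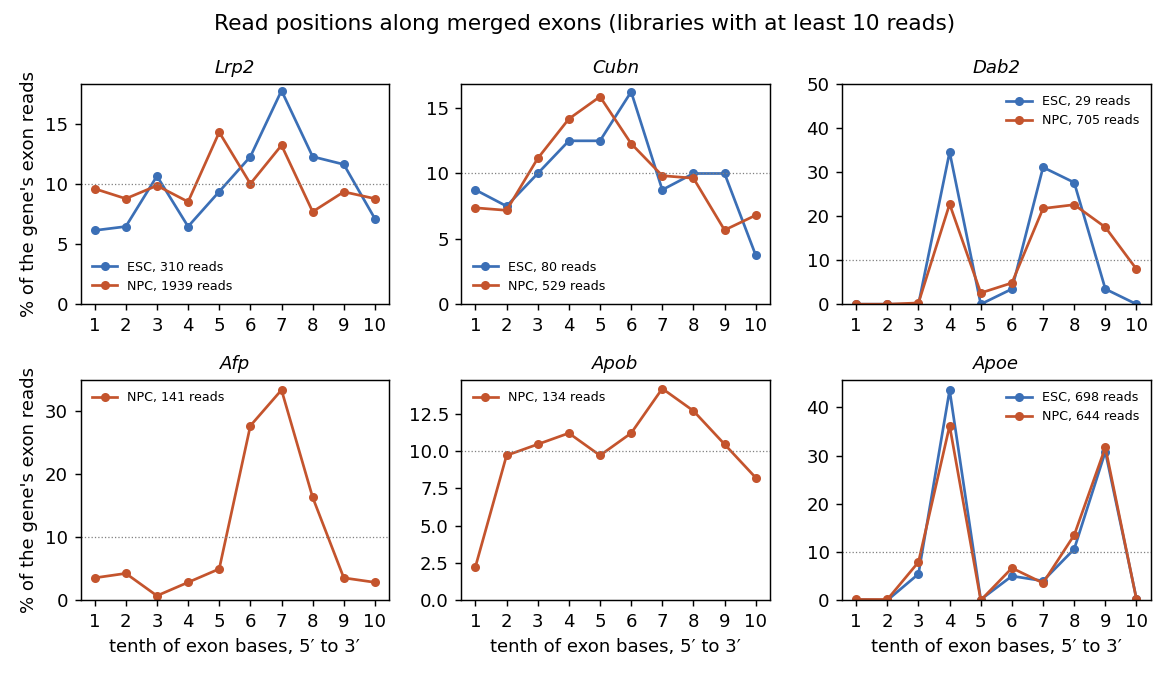
Share of the exon reads of a gene (vertical axis, %) in each of 10 equal bins of its merged exon bases from 5′ to 3′ (horizontal axis), for Lrp2, Cubn, Dab2, Afp, Apob and Apoe in libraries with at least 10 reads, ESC in blue and NPC in orange; the dotted line marks an even spread of 10%. Apoe peaks in bins 4 and 9 in both libraries, Afp peaks in bins 6 to 8 in NPCs, and Lrp2 has 39.0% of its ESC reads and 51.0% of its NPC reads in the first 5 bins. The Apoe, Dab2 and Lrp2 bins follow several merged transcripts and are not positions along a single transcript.

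Dab2 is made in a long form and in a short form that lacks a large central coding stretch. In the annotation, 12 coding transcripts are listed, of which 5 leave out exon 9, exon 10 or both of Dab2-001, the longest. These exons hold 63 and 654 bases, 717 in all. The intron bases beside them are printed in lower case and exon bases in capitals, on the plus strand of mm9, with exon 9 whole (chr15:6374620-6374712) and the start of exon 10 (chr15:6379281-6379358).
Dab2 exon 9: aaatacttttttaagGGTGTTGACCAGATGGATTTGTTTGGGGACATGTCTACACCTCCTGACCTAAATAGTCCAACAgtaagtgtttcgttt
Dab2 exon 10: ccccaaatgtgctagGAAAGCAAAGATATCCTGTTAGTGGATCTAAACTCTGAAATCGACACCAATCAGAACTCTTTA

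In NPCs, exons 9 and 10 had 38 reads, 53.0 per kb, and the other 11 coding exons had 368, 232 per kb. The density over the exons that can be left out was thus 0.228 of that over the others (0.159 to 0.319). In ESCs 1 read fell on them and 23 on the others, a ratio of 0.0961 (0.00233 to 0.592) that covers the NPC value. Among the 8 exons of at least 96 bases that were not left out, NPC density ranged from 133 to 536 reads per kb, so the 50.5 per kb of exon 10 lay below each of them. Exon 1, a noncoding exon of 335 bases that other coding transcripts also splice over, was lower still, with 1 NPC read (2.99 per kb). Shorter exons varied: exon 6 (81 bases) and exon 7 (27 bases) had 0 reads, exon 8 (54 bases) 4, exon 9 5 and exon 14 (68 bases) 16, or 235 per kb. The NPC ratio was 0.402 (0.258 to 0.604) with each start counted a single time, and with reads wholly inside exons per usable position 0.172 (0.118 to 0.243). No read in these files crosses a splice junction, so the forms themselves were not counted.

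**Figure D3:**
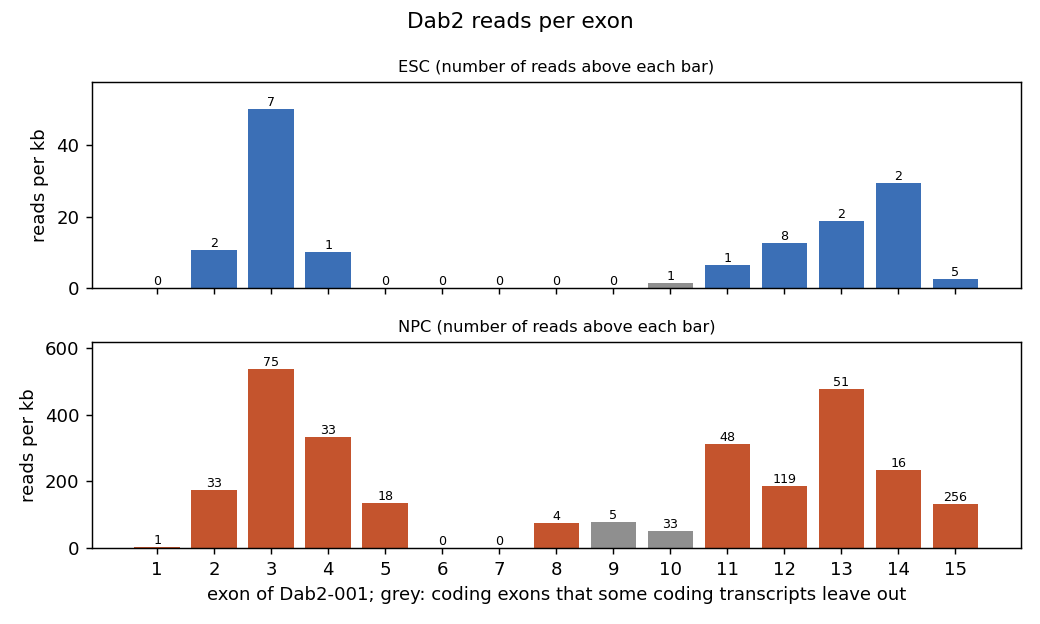
Dab2 reads per kb (vertical axis, different scale in each panel) over the 15 exons of Dab2-001 (horizontal axis) in the ESC library (top) and the NPC library (bottom); numbers above the bars are reads, and grey bars are coding exons that some coding transcripts leave out. In NPCs exon 10 has 33 reads over 654 bases, while exons 11, 12 and 13 have 48, 119 and 51.

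The parts of the mature transcripts were read unequally. In NPCs Dab2 had 406 reads in coding sequence, 256 in the 3′ UTR and 30 in the 5′ UTR, or 176, 133 and 69.3 per kb. Lrp2 had 1802 coding and 135 3′ UTR reads in NPCs, 129 and 103 per kb, and 293 and 16 in ESCs, 21.0 and 12.3 per kb. Apoe had 637.8 coding reads per kb in NPCs and 663 in ESCs, against 162 and 273 per kb in its 3′ UTR. Most reads had a sequence found a single time in mm9, from 92.8% for Apoe in ESCs to 100% for Dab2 in ESCs among genes with at least 10 reads in that library.

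Neighbours of the 10 genes were counted in the same way. Within 50 kb lay 43 other annotated genes, of which 20 had at least 10 reads, 6 of them more than 2-fold higher in NPCs and 1 in ESCs, where 24.6% and 12.8% of all genes were, with a median log2 ratio of 0.48 (0.34 over all genes). Alb, the albumin gene 14110 bases from Afp, had 1 read in each library, and Afm, the afamin gene on its other side, had 0. Apoc3 and Apoa4 beside Apoa1 had 0 reads in both. Apoc1, an exchangeable apolipoprotein 3450 bases from Apoe, had 41 reads in ESCs and 13 in NPCs (0.308, 0.151 to 0.586), lower than Apoe itself (0.896, 0.803 to 0.998). The highest ratio of the 20 was at D17H6S53E, 141 bases from Apom on the opposite strand, with 6 and 92 reads (14.9, 6.58 to 41.6). The other 5 were Trdmt1 and Rsu1 beside Cubn (3.97 and 2.08), Cdc42bpb near Amn (2.32), and Abhd16a and Prrc2a near Apom (2.28 and 2.16). The genes within 2-fold were Bag6, B4galt6, Clptm1, Csnk2b, Gm10269, Gpank1, Pvrl2, RP23-115O3.9, Sik3, SNORA38, Tomm40, Traf3 and Zfp259.

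The machinery that works with the receptors was detected throughout. All 25 genes of endocytic adaptors and coat had at least 10 reads. Of these, 13 were more than 2-fold higher in NPCs and 0 in ESCs, where 24.6% and 12.8% of all genes were. Their median log2 ratio was 1.03 (0.34 over all genes). Clcn5, the chloride-proton exchanger of endosomes in protein-reabsorbing epithelia, had 174 and 1608 reads (8.97, 7.67 to 10.6), and Lrpap1 206 and 1269 (5.98, 5.16 to 6.96). Cltc, the clathrin heavy chain, had 2389 and 8528 (3.47), Ehd1, a recycling factor, 584 and 1695 (2.82), and Picalm, a clathrin assembly protein, 675 and 1418 (2.04). The lowest ratios were those of Gipc1, which binds the megalin tail (0.860), Ap2a1, an AP-2 subunit (0.898), and Hip1r (1.31). The list median was 0.51, and that of all genes 0.01, with each start counted a single time. It was 0.69 under median-of-ratios scaling.

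Among 13 other genes of the lipoprotein receptor family of Lrp2, 12 had at least 10 reads. Of these, 3 were more than 2-fold higher in NPCs and 3 in ESCs, where 24.6% and 12.8% of all genes were. The list median was 0.61 (0.34 over all genes). Vldlr (37 and 126 reads, 3.31-fold), Lrp10 (164 and 471, 2.79-fold) and Lrp8 (57 and 126, 2.15-fold) were higher in NPCs. Sorl1, a sorting receptor (557 and 154, 0.268), Lrp11 (162 and 60, 0.360) and Lrp1 (157 and 69, 0.427) were lower. Lrp6, a Wnt co-receptor, had 325 and 643 reads (1.92). The ratio of Lrp2 was 6.07 (5.38 to 6.87).

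Other plasma carriers were scarce. Of 16, 5 had at least 10 reads, and 3 of these were more than 2-fold higher in NPCs and 0 in ESCs (24.6% and 12.8% of all genes). Afm, Gc, Hp, Apoh, Ambp and Serpina1a had no read in either library. Rbp4, the retinol-binding protein that travels bound to transthyretin, had 3 reads in ESCs and 41 in NPCs (13.3, 4.23 to 67.0). Clu, clusterin, had 79 and 166 (2.04), Cp, ceruloplasmin, 0 and 10, and Tcn2, transcobalamin, 168 and 225 (1.30). Transferrin was uncertain, since 2 annotated entries share the symbol Trf: 1 had 79 and 3 reads, and the longer, used here for the list, had 151 and 135 and runs across the neighbouring gene Srprb.

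Of 26 further apolipoprotein and lipoprotein assembly genes, 14 had at least 10 reads. Of these, 4 were more than 2-fold higher in NPCs and 5 in ESCs, where 24.6% and 12.8% of all genes were. The list median was 0.62 (0.34 over all genes). Mttp, the transfer protein that loads lipid onto apolipoprotein B, had 40 and 241 reads (5.85, 4.17 to 8.39), and its partner subunit P4hb 1928 and 6668 (3.36, 3.19 to 3.53). Soat2 and Soat1, which esterify cholesterol, had 4 and 49 (11.9, 4.36 to 45.4) and 372 and 1208 (3.15). Apobec1, the enzyme that edits the Apob message, had 33 reads in ESCs and 1 in NPCs (0.0294, 0.000723 to 0.176). Abcg1, a cholesterol exporter (241 and 38, 0.153), Pltp, a phospholipid transfer protein (216 and 79, 0.355), Apoc1 (41 and 13, 0.308) and the receptor Scarb1 (341 and 169, 0.481) were lower in NPCs as well.

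For the cargo of cubilin and related uptake, 13 of 14 iron, folate and cobalamin genes had at least 10 reads. Of these, 6 were more than 2-fold higher in NPCs and 0 in ESCs, where 24.6% and 12.8% of all genes were. The list median was 0.61 (0.34 over all genes). Slc40a1, the iron exporter ferroportin, had 44 and 226 reads (4.99), Lmbrd1, the lysosomal cobalamin exporter, 43 and 170 (3.84), and Fth1, the ferritin heavy chain, 386 and 1354 (3.41). Tfrc, the transferrin receptor, had 1761 and 1210 (0.667), Ftl1, the ferritin light chain, 612 and 338 (0.536), and Steap3, an endosomal ferrireductase, 208 and 111 (0.518). Ferritin genes have many near-identical processed copies, so their counts are uncertain.

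All 20 lysosomal genes had at least 10 reads. Of these, 12 were more than 2-fold higher in NPCs and 0 in ESCs, where 24.6% and 12.8% of all genes were. The list median was 1.28 (0.34 over all genes). The proteases Ctsh (18 and 304 reads, 16.4, 10.2 to 28.0) and Ctsl (210 and 1299, 6.01) and the membrane protein Cd63 (35 and 447, 12.4) had the highest ratios. Lamp1 (1507 and 3594, 2.32), Ctsd (1528 and 2247, 1.43) and Psap (1275 and 1795, 1.37) had the most reads. Npc2, a cholesterol-binding protein, had 438 and 386 (0.856, 0.744 to 0.983). Their median was 0.46 with each start counted a single time.

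Transcription factors of endoderm are known regulators of several of these genes. Of 12, 11 had at least 10 reads, and 8 of these were more than 2-fold higher in NPCs and 0 in ESCs (24.6% and 12.8% of all genes). The list median was 4.31 (0.34 over all genes). Gata4 had 61 and 1179 reads (18.8, 14.5 to 24.7), Gata6 8 and 459 (55.7, 28.0 to 130), Foxa2 2 and 113 (54.9, 14.8 to 458), and Sox17 8 and 383 (46.5, 23.4 to 108). Hnf4a, which acts on many apolipoprotein promoters, had 9 and 55 (5.93, 2.91 to 13.7). Eomes and Hhex each had 12 reads in ESCs and 14 in NPCs (1.13, 0.486 to 2.68), Cebpa had 20 in each library, and Foxa1 had 1 and 2.

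Listed markers of hepatocytes and kidney proximal tubule, cells of organs that share much of this uptake and transport set in the adult, had few reads in either library. No list of fetal liver markers was made, so the part of fetal-type liver cells was not tested. All 8 hepatocyte markers had fewer than 10 reads (8 reads in ESCs and 5 in NPCs in all, with Tat, Cyp2e1, Cyp3a11 and Tdo2 at 0), and so had all 6 markers of the kidney proximal tubule (3 and 1 reads, with Slc34a1, Slc22a6 and Slc22a12 at 0). Of 6 choroid plexus markers, the site of Ttr synthesis in brain, 4 had at least 10 reads. Of these, 2 were more than 2-fold higher in NPCs (24.6% of all genes were), Clic6 (15 and 302 reads) and Folr1 (57 and 146). Kcnj13 had 0 reads in both and Kl 2 and 0. Lama1 and Col4a1, the basement membrane genes that parietal endoderm makes in bulk, had 427 and 10346 reads and 856 and 20753, so that these products outnumbered the reads of all 10 genes in NPCs, which came to 4149. Visceral and parietal endoderm as separate cells cannot be told apart in bulk RNA, and the part of either in the 10 genes was not tested.

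**Figure D4:**
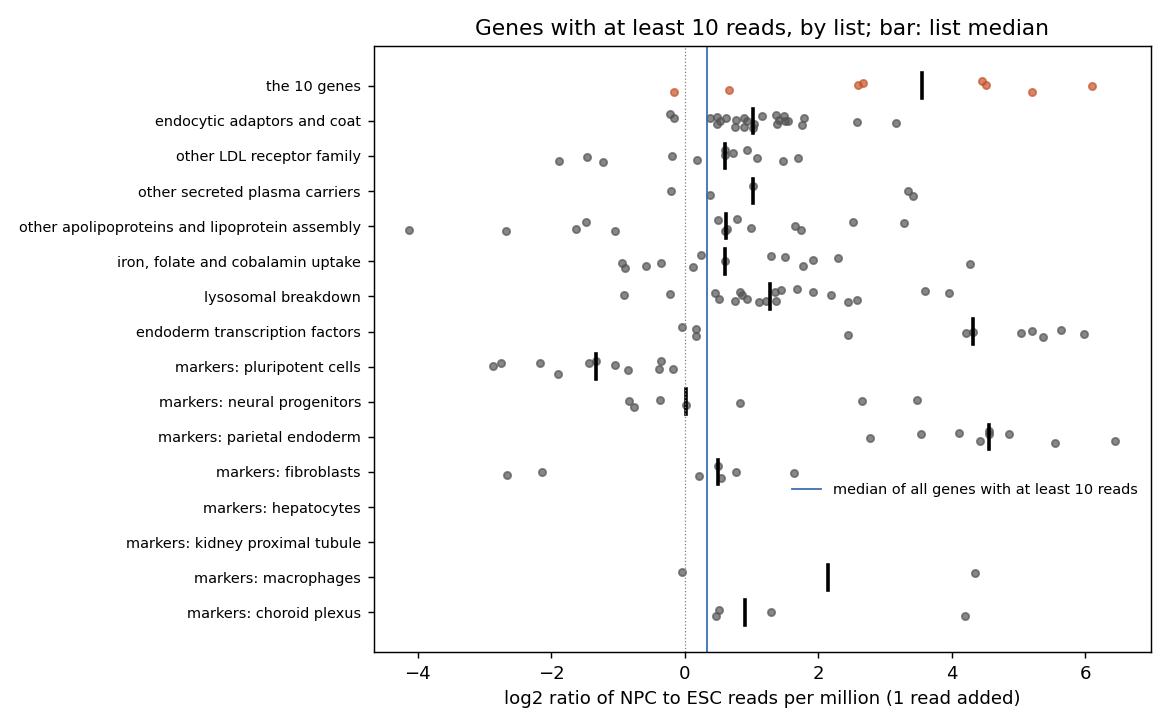
Log2 ratio of NPC to ESC RPM with 1 read added (horizontal axis) for each gene with at least 10 reads, by list (rows), with list medians as black bars and the median of all genes, 0.34, as the blue line. The 8 plotted members of the set (orange) range from Apoe at -0.16 to Afp at 6.11, and parietal endoderm markers and endoderm transcription factors lie to the right with medians of 4.55 and 4.31.

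Promoter sequences from RefSeq (GRCm38.p6, a different build from the reads) were available for 9 of the 10 genes, all but Ttr, in 12 windows of 250 bases before to 50 after a start. Short motifs of endoderm factors were searched for on both strands, and a match is a description of letters only. For GATA factors, AGATAA was found in 1 of the 12 windows and in 11.2% of all 32851 windows. GTTAAT was found in 3 and in 7.10%. For FOXA, TGTTTAC was found in 1 and in 3.65%. For HNF4, CAAAGTCCA was found in 0 and in 0.475%. No match overlapped another. Besides Afp and Dab2, a window of Apoe, whose ratio was below 1, held GTTAAT and also the TGTTTAC match. The windows of Lrp2, Cubn, Amn, Apoa1, Apob and Apom held none of the 4 motifs. The Afp window and the second Dab2 window are shown as examples, with GTTAAT in capitals, 105 bases before the start in Afp and 65 before it in Dab2. They are printed 5′ to 3′ on the plus strand, Afp from chr5:90490464-90490763 and Dab2 from chr15:6386498-6386797.
Afp promoter: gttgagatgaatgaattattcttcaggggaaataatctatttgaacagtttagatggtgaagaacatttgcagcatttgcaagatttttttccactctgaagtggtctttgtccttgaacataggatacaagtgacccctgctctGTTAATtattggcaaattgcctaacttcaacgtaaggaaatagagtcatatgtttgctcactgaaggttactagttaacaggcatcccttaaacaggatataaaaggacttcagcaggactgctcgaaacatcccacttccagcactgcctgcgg
Dab2 promoter: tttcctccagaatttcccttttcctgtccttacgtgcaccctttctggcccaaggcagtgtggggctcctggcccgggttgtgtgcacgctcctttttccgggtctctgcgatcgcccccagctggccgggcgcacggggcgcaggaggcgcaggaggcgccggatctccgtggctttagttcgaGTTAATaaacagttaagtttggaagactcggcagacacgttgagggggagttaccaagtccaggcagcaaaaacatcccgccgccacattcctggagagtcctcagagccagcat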

How the data were processed

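Non-polyadenylated RNA of 1 ESC and 1 NPC library was sequenced strand-specifically on SOLiD. The authors removed poly(A) RNA and rRNA, amplified the libraries by 15 PCR cycles and, per the labels and the study's methods, aligned reads to mm9 with Bowtie (version not given in the sources used here), taking 1 best placement per read and removing mitochondrial, ribosomal and repeat-overlapping reads, so exons and introns in repeats are under-counted. The deposited files list read placements (chromosome, start, end, strand and sequence) and hold no expression values. Lengths up to 48 bases were present, 3.77% of ESC and 4.23% of NPC reads being shorter. A read was called unique where its bases occur a single time in mm9 without mismatch, which held for 78.2% and 83.2% of reads. ESC reads had 1531216 distinct starts and NPC reads 1848069.

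Reads overlapping merged GENCODE M1 exons on the gene strand by at least 1 base were counted with Python 3.11.15, NumPy 2.4.6 and SciPy 1.17.1, and figures drawn with matplotlib 3.10.9. RPM used the library total. Ratios of single genes added no read, and list ratios and the count of genes past 2-fold added 1 read per library. Intervals are exact 95% Poisson, Clopper-Pearson or conditional binomial and cover counting error only, since PCR copies are not independent molecules. No test between cell types was made. The 10 genes and all lists were chosen with earlier results of these data known. Of each list at most the 3 genes with most reads, the 3 highest and the 3 lowest in ratio (at least 20 reads in 1 library) were named, with genes at 0 in lists of 12 or fewer and neighbours with at least 10 reads. Pltp, Eomes, Hhex, Foxa1, the neural, fibroblast and macrophage markers with reads, Kl, Alb, Afm, Apoc3, Apoa4 and the carriers at 0 were named after their values were seen. Some genes that this rule selects are not reported here, and the counts of their lists include them. Counting was tested on simulated data. Sox1 and Tfcp2l1 are not in GENCODE M1. Protein sequences were not used here.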

Additional observations from a re-analysis of the deposited data

How the results depend on the processing

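No paired analysis was possible because each cell type has 1 library. Alternatives changed the scaling of the libraries, the use of repeated or multiply placed reads and the rule assigning reads to exons. For 9 of the 10 genes, all but Apom, no ratio changed direction under 7 alternatives each, which were not run for single genes of the lists or neighbours. The log2 ratio ranged from 5.79 to 7.03 for Afp, 2.73 to 5.21 for Ttr, 1.28 to 2.96 for Apoa1, 4.34 to 4.70 for Apob, 0.40 to 0.76 for Amn, 1.77 to 2.60 for Lrp2, 2.21 to 2.70 for Cubn, 3.59 to 4.55 for Dab2 and -0.50 to -0.16 for Apoe. The Ttr values are lower bounds with the ESC count taken as 3 reads, except 5.21, which had 1 read added. The 1.28 of Apoa1, from unique reads, is such a bound too, because its 1 ESC read was not unique. With each start counted a single time, the pooled 5′ share of the 10 genes was 39.3% in ESCs (45.9% as reported over all reads), the pooled intron share 10.1% in ESCs (5.75%) and 21.8% in NPCs (14.2%), where Apoe holds 698 of the 1132 ESC exon reads with 0.570% of its reads in introns, the Lrp2 to Cubn level ratio in NPCs 2.13, the Dab2 density ratio in NPCs 0.402 (an alternative chosen after seeing the data, as were those per usable position), and the list medians 0.51 for adaptors and coat and 0.46 for lysosomal genes. Along the longest coding transcript the pooled 5′ share was 52.7% in ESCs and 51.1% in NPCs (44.8%). Counting as intronic every read not wholly inside an exon gave 9.16 and 18.6%, and by the 5′ end alone 16.2% in NPCs. Scaling by the median of ratios, a shift of 0.34 for all genes, gave 0.69 for adaptors and coat. With no minimum of reads the median of other plasma carriers was -0.043, against 1.02. That is the value of any gene with equal counts in both libraries, such as Alb with 1 read in each. It is also the value of the 6 carriers with no read, so it is not a measured shift. The causes of the other changes were not tested. Genes under 10 reads (Apoa1, Apom) and Amn are limited by depth.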
